A study of Mus musculus with 12 samples.

Results

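Transcripts of 9 genes, Pdk4, Ucp2, Ucp3, Angptl4, Acot1, Acot2, Plin2, Plin5 and Lpl, were followed across 12 RNA sequencing libraries of the mouse tibialis anterior, a mostly fast muscle at the front of the shin. The 9 genes were chosen by name, as textbook targets of the PPAR nuclear receptors that muscle uses during fasting, and with earlier results of these libraries known. All 9 were listed in each of the 3 deposited tables, out of 13865 genes listed in any table. All 9 reached the mean of 10 normalised reads that testing required over the 8 libraries of a comparison. Acot1 reached it against Sham only through the other group. Its means were 454.6 in KPC beside 6.16 in Sham, and 17.7 in KPC_UA beside 6.45 in Sham. In KPC_UA against Sham it stayed above the limit in 7 of the 8 fits with a library left out. Because they were chosen with results known, their fold changes are given as a description and no test is drawn from them.

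The study asked whether ursolic acid, a plant triterpenoid, alters gene expression in the muscle of mice with pancreatic cancer. KPC_UA muscle (4 libraries) came from C57BL/6J mice that carried KPC tumours and ate chow supplemented with ursolic acid. KPC muscle (4 libraries) came from C57BL/6J mice that carried KPC tumours and ate standard chow. Sham muscle (4 libraries) came from tumour-free C57BL/6J mice on standard chow. KPC cells are a mouse pancreatic cancer line and were placed surgically in the pancreas. The age and sex of the mice, the amount of ursolic acid and the length of feeding are not given in the labels, nor is it said that each library came from a separate mouse, so p-values speak only to how these libraries vary.

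In fasting muscle, fatty acids released from fat tissue enter the fibre and serve as ligands of PPAR alpha and PPAR delta. These receptors bind DNA as partners of RXR and raise transcription of genes that take up, store, shuttle and burn lipid and that hold back glucose oxidation. Pdk4 is the best known of these targets in muscle, and its protein inactivates the pyruvate dehydrogenase complex.

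The libraries held 22.3 to 32 M reads in listed genes. KPC replicates 1 and 4 stood apart from the others. On the first principal component, which held 63.4% of the variance, KPC replicate 1 lay at 105.9 and KPC replicate 4 at 44.5, whereas the other KPC libraries lay at -7.42 and 9.79. The KPC_UA libraries lay between -21.2 and -1.32 and the Sham libraries between -28.9 and -22.9. In comparisons with KPC, fold changes of each of the 9 genes are therefore also given without KPC replicate 1, as are those of several other genes. Summed muscle fibre markers (Acta1, Ckm, Mb, Myh4, Myh1, Tnnt3 and Pvalb) overlapped between groups, at 3.31 to 4.03 M normalised reads in KPC_UA, 3.30 to 3.78 M in KPC and 3.44 to 4.14 M in Sham. Single markers did not all overlap. Acta1 had 356690 to 498604 in KPC, below the 517244 to 608113 of Sham. In KPC over Sham 6 of the 7 had negative log2 fold changes and 2 had an unadjusted p under 0.05 by limma. Of all genes, 50.5% were positive and 24.5% had such a p. In a whole muscle, fewer cells of a type and less RNA per cell cannot be told apart.

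Levels below are read counts divided by a size factor for each library, computed over all 12 libraries so that the 3 groups share a scale. Fold changes come from limma within each deposited table, since the tables were normalised separately, and are on the scale of log2(value + 1).

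In KPC muscle, transcripts of 8 of the 9 genes were more abundant than in Sham muscle, and in KPC_UA muscle the same 8 were less abundant than in KPC muscle, with log2 fold changes of -0.61 or lower. Plin2 differed little in either comparison. The median log2 fold change of the 9 genes was 1.82 in KPC over Sham, where the median of all genes tested was 0.0075. It was -1.52 in KPC_UA over KPC, beside -0.0037 for all genes, and 0.66 in KPC_UA over Sham, beside 0.0089. The comparisons share libraries (the 4 KPC libraries enter the first pair with opposite signs), so the opposite signs are not independent of each other.

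**Figure D1:**
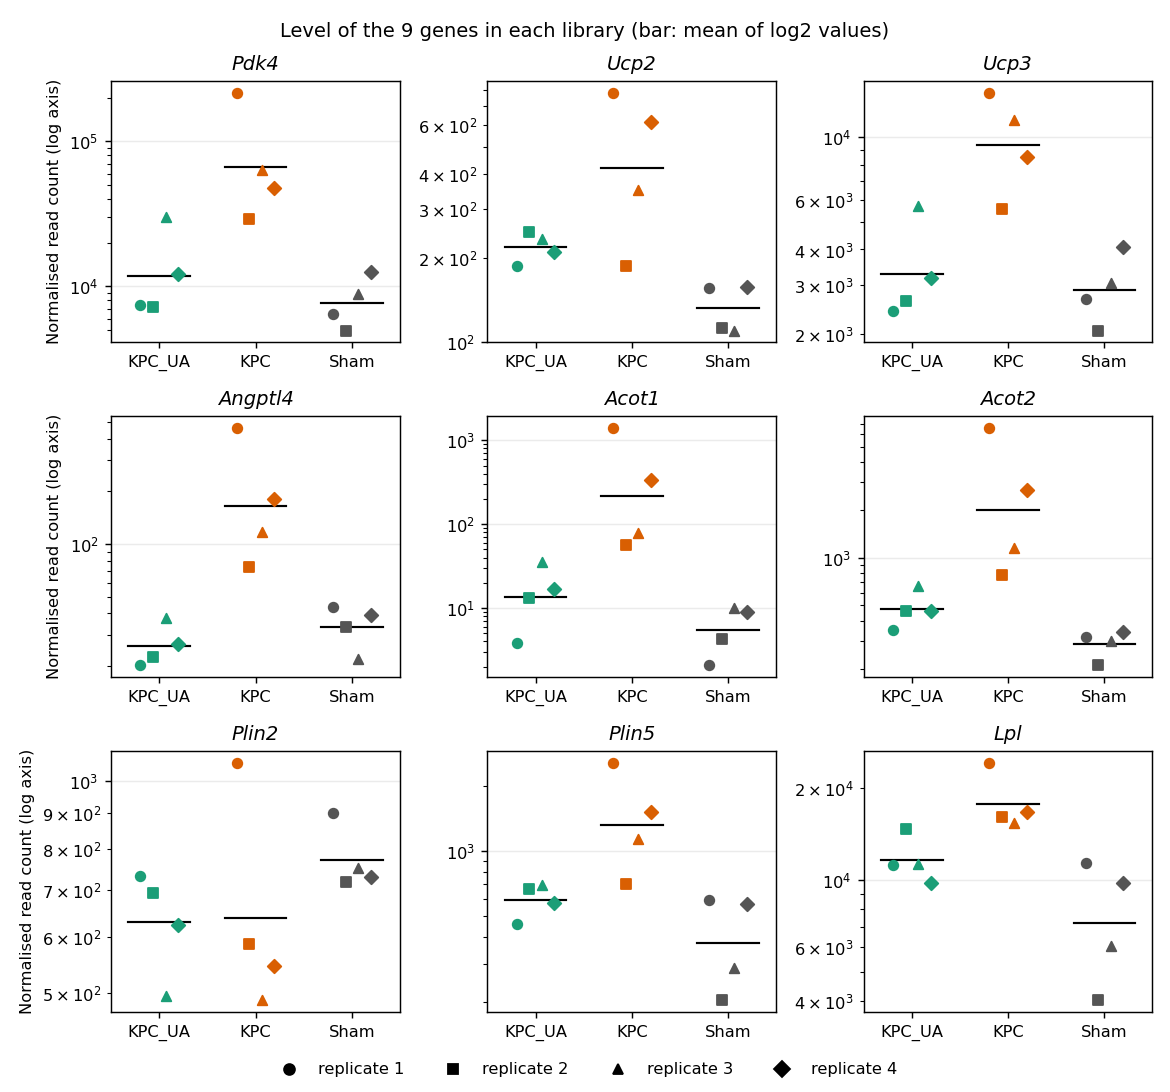
Normalised read count (log axis) of each of the 9 genes in the 12 libraries, by group. Each point is a library, its shape gives the replicate number, and the bar is the mean of the log2 values. KPC replicate 1 (circle) is the highest library in all 9 panels, and in the Plin2 panel the other KPC libraries lie below every Sham library.

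Pdk4 (ENSMUSG00000019577, chr6:5483351-5496309, minus strand, GRCm38) had the most normalised reads per kilobase of annotated exon of the 9 in every group. Its normalised reads numbered 7408, 7186, 29966 and 12221 in KPC_UA replicates 1 to 4, 215817, 29310.4, 63257 and 48013 in KPC replicates 1 to 4, and 6462, 4963, 8845 and 12593 in Sham replicates 1 to 4. Every KPC library stood above every Sham library, and KPC_UA replicate 3 was within the KPC range while the other KPC_UA libraries lay inside the Sham range. The means were 14195 ± 10767 in KPC_UA, 89099 ± 85611 in KPC and 8216 ± 3327 in Sham (SD, n = 4 each). In KPC replicate 1 Pdk4 alone took 0.735% of all reads in listed genes, against 0.0197% to 0.0508% in the Sham libraries. The log2 fold change was 3.09 in KPC over Sham (SE 0.54; 2.53 without KPC replicate 1), -2.48 in KPC_UA over KPC (SE 0.61; -1.92 without KPC replicate 1) and 0.62 in KPC_UA over Sham (SE 0.45). Without KPC_UA replicate 3, the last of these was 0.17.

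The bases around the start of Pdk4 are shown because the gene leads the group. The window is chr6:5496229-5496528, minus strand, from 250 bases before to 50 bases after the start of the RefSeq gene model (GRCm38.p6), and it held neither AGGTCA, the hexamer that PPAR, RXR and other nuclear receptors bind, nor GTAAACA, a motif of forkhead factors, on either strand.

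Pdk4: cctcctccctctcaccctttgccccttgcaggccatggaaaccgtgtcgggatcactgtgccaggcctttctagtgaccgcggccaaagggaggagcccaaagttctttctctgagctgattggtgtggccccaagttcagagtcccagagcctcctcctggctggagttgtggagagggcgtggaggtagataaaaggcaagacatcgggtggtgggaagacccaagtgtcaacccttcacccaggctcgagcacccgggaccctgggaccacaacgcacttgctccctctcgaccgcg

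Ucp3 and Ucp2 encode mitochondrial carriers of the uncoupling protein family and are neighbours on chromosome 7, with Ucp3 at chr7:100472990-100486432 and Ucp2 at chr7:100493337-100502020 (both plus strand, 6904 bases apart). Their coding sequences were 75.5% identical. Ucp3 is the form of skeletal muscle, and its normalised reads numbered 2427, 2630.2, 5706 and 3163 in KPC_UA replicates 1 to 4, 14377, 5564, 11522 and 8532 in KPC and 2677, 2062, 3029 and 4091 in Sham. All KPC libraries exceeded all Sham libraries, while KPC_UA replicate 3 was just above the lowest KPC library. The log2 fold change was 1.71 in KPC over Sham (SE 0.31; 1.51 without KPC replicate 1). It was -1.52 in KPC_UA over KPC (SE 0.34; -1.32 without KPC replicate 1), and in KPC_UA over Sham it was 0.19 (SE 0.27), with -0.07 when KPC_UA replicate 3 was left out.

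Ucp2, the broadly expressed relative of Ucp3, was far scarcer. Its normalised reads numbered 188, 248, 234 and 209 in KPC_UA replicates 1 to 4, 782, 186, 350.3 and 615 in KPC and 156, 112, 109.6 and 158 in Sham. All KPC_UA and all KPC libraries lay above all Sham libraries, and KPC replicate 2 lay below the KPC_UA libraries. Log2 fold changes were 1.66 in KPC over Sham (SE 0.40), -0.94 in KPC_UA over KPC (SE 0.39) and 0.73 in KPC_UA over Sham (SE 0.17). Without KPC replicate 1, the value in KPC over Sham was 1.37 and that in KPC_UA over KPC was -0.65. Without KPC replicates 1 and 4, the value in KPC over Sham was 0.95 and that in KPC_UA over KPC was -0.23. Exons of Ucp2 overlap Dnajb13 on the opposite strand, and no source used here says whether the counting used strand, so the reads of Ucp2 are uncertain. Per kilobase of annotated exon, Ucp3 exceeded Ucp2 by 23.6 to 54.5 times in KPC_UA libraries. The range was 30.9 to 73.3 times in KPC libraries and 38.2 to 61.6 times in Sham libraries. All annotated exons joined come to 6989 bases for Ucp2 and 3135 for Ucp3. This difference in length raises the ratios above those of the reads themselves.

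The start of Ucp3 is shown because it holds AGGTCA at 2 places, in capitals. The second of these closes the run AGGTTTCAGGTCA, which differs by 2 letters from the repeat of AGGTCA with any single base between, which PPAR and RXR bind together. The window is chr7:100472741-100473040, plus strand.

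Ucp3: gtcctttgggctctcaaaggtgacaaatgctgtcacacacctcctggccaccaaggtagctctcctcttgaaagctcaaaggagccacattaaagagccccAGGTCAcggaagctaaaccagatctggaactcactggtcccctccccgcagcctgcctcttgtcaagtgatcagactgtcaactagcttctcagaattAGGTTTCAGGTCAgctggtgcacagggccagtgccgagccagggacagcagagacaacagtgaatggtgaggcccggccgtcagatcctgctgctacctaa

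Acot1 and Acot2 encode acyl-CoA thioesterases, which split fatty acyl-CoA into free fatty acid and coenzyme A in the cytosol (Acot1) and in mitochondria (Acot2). They lie side by side on chromosome 12, Acot2 at chr12:83987861-83993873 and Acot1 at chr12:84009490-84018371 (both plus strand, 15616 bases apart). Over 1239 aligned coding bases they were 95.5% identical. The longest run of letters that both share is 273 bases, at coding bases 887 to 1159 of Acot1 and 1010 to 1282 of Acot2, and it is printed to show why reads of the pair cannot always be assigned.

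Acot1 and Acot2, shared run: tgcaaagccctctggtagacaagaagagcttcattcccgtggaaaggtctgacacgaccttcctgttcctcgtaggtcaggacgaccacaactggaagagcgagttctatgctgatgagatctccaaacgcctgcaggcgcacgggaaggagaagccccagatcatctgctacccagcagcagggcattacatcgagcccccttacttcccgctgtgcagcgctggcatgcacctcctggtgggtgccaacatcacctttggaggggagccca

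Of all 100-base stretches of the transcripts, 12.4% of those of Acot1 and 17.1% of those of Acot2 occurred also in another gene, and for Acot2 that gene was Acot1. The 2 genes are therefore read together. Their summed values had a log2 fold change of 2.92 in KPC over Sham, -2.19 in KPC_UA over KPC and 0.74 in KPC_UA over Sham.

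Acot1 had few reads in Sham muscle and covered the widest range of the 9 genes. Whole reads numbered 4, 14, 39 and 17 in KPC_UA replicates 1 to 4, 1069, 50, 71 and 435 in KPC and 2, 5, 9 and 9 in Sham. After scaling this was 56.1 to 1408 normalised reads in KPC, above the 3.85 to 35.2 of KPC_UA and the 2.07 to 9.87 of Sham, with no overlap of KPC with either group. Acot1 had a log2 fold change of 5.04 in KPC over Sham (SE 0.90), 4.14 without KPC replicate 1 and 3.37 without KPC replicates 1 and 4. It was -3.89 in KPC_UA over KPC (SE 0.96; -2.99 without KPC replicate 1) and in KPC_UA over Sham 1.17 (SE 0.61), where the low reads make the values imprecise.

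Acot2 carried most reads of the pair. Normalised reads numbered 351, 459.5, 666 and 459.5 in KPC_UA replicates 1 to 4, 6602, 777, 1148 and 2677 in KPC and 317, 209, 298 and 340.5 in Sham. The 3 groups did not overlap, with KPC highest and Sham lowest. Its log2 fold change was 2.79 in KPC over Sham (SE 0.56), -2.08 in KPC_UA over KPC (SE 0.56) and 0.72 in KPC_UA over Sham (SE 0.20). Without KPC replicate 1 the first was 2.22 and the second -1.50, and without KPC replicates 1 and 4 they were 1.72 and -1.0. The ratio of Acot2 to Acot1 per kilobase of annotated exon was 33.8 to 163 in KPC_UA libraries. It was 8.37 to 26.0 in KPC libraries and 53.9 to 273 in Sham libraries. The share of Acot1 in the pair was thus larger in every KPC library than in any other.

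Lpl encodes lipoprotein lipase, which releases fatty acids from circulating lipoproteins at the capillary wall, and Angptl4 encodes a secreted inhibitor of that enzyme. Angptl4 (chr17:33773750-33781830, minus strand) was scarce, with 20.2, 22.4, 37.9 and 26.6 normalised reads in KPC_UA replicates 1 to 4, 461, 74.1, 118 and 181 in KPC and 43.5, 33.4, 21.9 and 39.2 in Sham. Every KPC library lay above every library of the other groups, and KPC_UA and Sham overlapped. The log2 fold change was 2.26 in KPC over Sham (SE 0.49; 1.77 without KPC replicate 1), -2.61 in KPC_UA over KPC (SE 0.49; -2.12 without KPC replicate 1) and -0.34 in KPC_UA over Sham (SE 0.29). Angptl4 and Plin2 were the members of the set with negative values in KPC_UA over Sham.

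Lpl (chr8:68880491-68907448, plus strand) had 11198, 14685, 11279 and 9744 normalised reads in KPC_UA replicates 1 to 4, 24172, 16006, 15348 and 16693 in KPC and 11343, 4028, 6074 and 9759 in Sham. The KPC libraries stood above all others, and the highest Sham library was within the KPC_UA range. Its log2 fold change was 1.30 in KPC over Sham (SE 0.31; 1.15 without KPC replicate 1), -0.61 in KPC_UA over KPC (SE 0.20; -0.47 without KPC replicate 1) and 0.69 in KPC_UA over Sham (SE 0.28). Lpl in KPC replicate 1 was far from the other KPC libraries, which spanned 15348 to 16693.

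Plin5 and Plin2 encode perilipins, proteins that coat lipid droplets. Plin5 (chr17:56111601-56117596, minus strand), the perilipin of oxidative tissues, had 461, 667, 694 and 574 normalised reads in KPC_UA replicates 1 to 4, 2563, 700.5, 1131 and 1516 in KPC and 595, 203, 287 and 566 in Sham. KPC did not overlap either group, although its lowest library lay less than 10 normalised reads above the highest KPC_UA library. Its log2 fold change was 1.82 in KPC over Sham (SE 0.44; 1.50 without KPC replicate 1), -1.16 in KPC_UA over KPC (SE 0.34; -0.85 without KPC replicate 1) and 0.66 in KPC_UA over Sham (SE 0.31).

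Plin2 (chr4:86648386-86670060, minus strand), the perilipin found in most tissues, did not follow the others. Its normalised reads numbered 732, 694, 495 and 623 in KPC_UA replicates 1 to 4, 1062, 587, 488 and 545 in KPC and 901, 719, 751 and 730.2 in Sham. KPC replicate 1 was the highest of the 12 libraries and the remaining KPC libraries were below all Sham libraries. The log2 fold change was -0.28 in KPC over Sham (SE 0.24; -0.52 without KPC replicate 1), -0.02 in KPC_UA over KPC (SE 0.25; 0.22 without KPC replicate 1) and -0.29 in KPC_UA over Sham (SE 0.14). The sign in KPC_UA over KPC was positive without KPC replicate 1 and also without KPC_UA replicate 3 (0.10).

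The starts of both perilipin genes are shown because each holds AGGTCA (in capitals, or as its complement TGACCT) while the transcripts behaved differently. In Plin2 (chr4:86670010-86670309, minus strand) the capitals mark a run that differs by 2 letters from the AGGTCA repeat with a single base between, read on the other strand. In Plin5 (chr17:56117499-56117798, minus strand) they mark the hexamer alone.

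Plin2: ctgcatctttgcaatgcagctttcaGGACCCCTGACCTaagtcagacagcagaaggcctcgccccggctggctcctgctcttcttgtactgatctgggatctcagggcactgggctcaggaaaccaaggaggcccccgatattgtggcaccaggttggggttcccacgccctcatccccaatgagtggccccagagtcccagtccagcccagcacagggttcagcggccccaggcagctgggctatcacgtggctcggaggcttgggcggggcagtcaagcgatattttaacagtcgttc
Plin5: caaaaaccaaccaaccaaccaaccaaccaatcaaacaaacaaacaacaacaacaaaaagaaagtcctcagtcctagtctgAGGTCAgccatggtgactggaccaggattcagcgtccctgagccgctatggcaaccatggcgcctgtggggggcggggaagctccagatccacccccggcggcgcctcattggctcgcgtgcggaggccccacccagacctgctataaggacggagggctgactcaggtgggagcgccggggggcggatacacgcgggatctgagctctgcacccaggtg

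RefSeq promoter windows were found for 7 of the 9 genes, as 8 windows (Plin5 had 2 starts), and not for Angptl4 and Lpl. The hexamer AGGTCA was in 4 of the 8 windows (Plin2, Ucp3 and both of Plin5) and in 16.3% of all 32817 windows. The repeat of AGGTCA with any single base between, which contains the hexamer, was in none of the 8 exactly and in 0.0396% of all. With up to 2 letters differing it was in the windows of Plin2 and Ucp3 and in 3.86% of all. GTAAACA was in none of the 8 and in 3.65% of all. Both strands were searched, and a match or its absence in so short a window says nothing about binding.

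Compared per kilobase of annotated exon, the order of the 9 genes was similar in the 3 groups. The length joins all annotated exons of a gene, 3511 bases for Pdk4, 3135 for Ucp3, 6989 for Ucp2 and 10478 for Lpl. Ranks therefore depend on the annotation and may differ per transcript in use. Undivided, the mean of Lpl was 11727 in KPC_UA, 18055 in KPC and 7801 in Sham. That of Pdk4 was 14195, 89099 and 8216 in the same order. Median normalised reads per kilobase were highest for Pdk4, at 2795 in KPC_UA, 15846 in KPC and 2179.8 in Sham. Ucp3 (924 in KPC_UA, 3198 in KPC and 910.0 in Sham) and Lpl (1073 in KPC_UA, 1560.4 in KPC and 756 in Sham) came next. Per kilobase, Ucp3 exceeded Lpl in all 4 KPC libraries, whereas in KPC_UA and in Sham the order of these 2 genes differed between libraries. Plin5 had medians of 297 in KPC_UA, 634 in KPC and 205 in Sham. For Acot2 the medians were 209 in KPC_UA, 871 in KPC and 140.0 in Sham, and for Plin2 they were 188 in KPC_UA, 161 in KPC and 211 in Sham. Ucp2 (31.7 in KPC_UA, 69.1 in KPC and 19.2 in Sham), Angptl4 (6.92 in KPC_UA, 42.1 in KPC and 10.3 in Sham) and Acot1 (3.81 in KPC_UA, 52.5 in KPC and 1.70 in Sham) were the scarcest.

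Within the KPC group the 9 genes shared their highest library but not the whole order. KPC replicate 1 was the highest KPC library for 9 of 9 genes, where it was highest for 36.8% of 13244 genes listed in all tables. KPC replicate 2 was the lowest for 7, the exceptions being Plin2 and Lpl. Within KPC_UA, replicate 3 was highest for 6 (Pdk4, Ucp3, Angptl4, Acot1, Acot2 and Plin5) and replicate 1 was lowest for 6 (Ucp2, Ucp3, Angptl4, Acot1, Acot2 and Plin5). Within Sham, replicate 2 was lowest for 6 (Pdk4, Ucp3, Acot2, Plin2, Plin5 and Lpl). The spread among KPC libraries, as the highest over the lowest, was 25.1 for Acot1, 8.50 for Acot2, 7.36 for Pdk4, 6.22 for Angptl4 and 1.57 for Lpl.

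**Figure D2:**
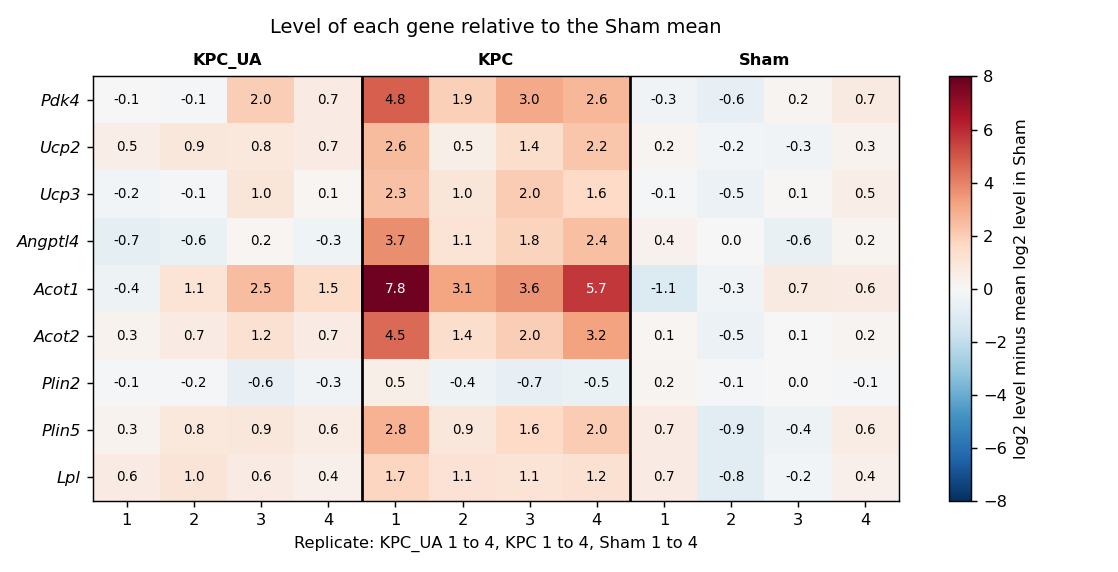
Log2 level of each gene in each library minus the mean log2 level of the 4 Sham libraries. Columns are replicates 1 to 4 of KPC_UA, KPC and Sham, and red is above and blue below the Sham mean. KPC replicate 1 has the highest value for every gene, Plin2 has the narrowest range, from -0.66 in KPC replicate 3 to 0.46 in KPC replicate 1, and KPC_UA replicate 3 is the reddest KPC_UA column for Pdk4, Ucp3, Acot1 and Acot2.

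Markers of other cell types and of oxidative fibres were summed in each library. The adipocyte list, of which 5 of 7 genes were listed, summed to 30143 to 43072 normalised reads in KPC_UA. It came to 12686 to 37545 in KPC and 41007 to 75519 in Sham, and was lowest of all in KPC replicate 1. Car3 alone had 12603 to 75293 normalised reads across the libraries, so this sum is almost all Car3. It is not read as a measure of fat cells. Without Car3 the sum was 98.3 to 418 in KPC_UA, 83.0 to 123 in KPC and 226 to 586 in Sham. No listed adipocyte marker was at 0 in any library, and Lep and Retn were not listed in all tables. Oxidative fibre markers summed to 12614 to 41112 in KPC_UA, 4501 to 17626 in KPC and 9189 to 40078 in Sham, again lowest in KPC replicate 1, the library that was the highest for all 9 genes among KPC libraries. Erythroid markers summed to 2486 to 15997 in KPC_UA, 2789 to 10659 in KPC and 749 to 3445 in Sham. Summed macrophage markers overlapped, at 723 to 919 in KPC_UA, 653 to 1258 in KPC and 576 to 877 in Sham, and so did summed endothelial markers, at 3690.1 to 6223 in KPC_UA, 4006 to 5611 in KPC and 4696 to 5628 in Sham. Single endothelial genes went both ways, with KPC wholly above Sham for 2 of 6 (10% of all genes) and wholly below for 2. By DESeq2 Kdr and Cldn5 passed in KPC over Sham, 1 higher and 1 lower (11.7% of all genes passed). In KPC_UA over KPC, Cldn5 passed DESeq2 as lower (0.538% of all genes). The part of these cell types in the values of the 9 genes was not tested.

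KPC and Sham were compared to ask what differs in the muscle of tumour-bearing mice. Of 13542 genes tested, 160 (1.18%) passed limma at an adjusted p under 0.05 (Benjamini-Hochberg), and 48 of these (0.354%) were higher in KPC. Before adjustment 3312 genes (24.5%) had a p under 0.05. Among the 48 were 4 of the 9 genes, Acot1, Acot2, Pdk4 and Ucp3. The authors' deposited table had 916 genes higher at its adjusted p under 0.05 (6.75%), with 8 of the 9, all but Plin2. The 4 KPC values lay wholly above the 4 Sham values for 10% of all genes and for the same 8. Since the genes were chosen with this contrast known, nothing is read from these counts. The limma calls depended on single libraries. No gene passed when KPC replicate 3, KPC replicate 4 or any Sham library was left out, whereas 395 genes (2.93%) passed without KPC replicate 1, with 5 of the 9, and 1352 (10%) without KPC replicate 2, with 8 of the 9.

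KPC_UA and KPC were compared to ask what ursolic acid changes in the presence of the tumour. No gene of 13522 (0.0%) passed limma at an adjusted p under 0.05, or edgeR, while 1714 (12.7%) had an unadjusted p under 0.05. DESeq2 passed 100 genes, 73 of them lower in KPC_UA (0.538%), and those 73 held Acot1, Acot2, Angptl4 and Ucp3. The 4 KPC_UA values lay wholly below the 4 KPC values for 4.14% of all genes and for 5 of the 9, Acot1, Acot2, Angptl4, Lpl and Plin5. Pdk4, Ucp2 and Ucp3 overlapped through KPC replicate 2, the lowest KPC library for all 3. Left without KPC replicate 1, the 8 genes other than Plin2 kept negative log2 fold changes, between -0.47 for Lpl and -2.99 for Acot1.

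KPC_UA and Sham were compared to ask how treated tumour-bearing muscle differs from tumour-free muscle. No gene of 13567 (0.0%) passed limma or edgeR, 1077 (7.94%) had an unadjusted p under 0.05, and DESeq2 passed 94 (0.692%), of which 52 were higher (0.383%) and included Ucp2. KPC_UA lay wholly above Sham for 2.08% of all genes and for 2 of the 9, Acot2 and Ucp2. The log2 fold changes of the 9 ran from -0.34 for Angptl4 to 1.17 for Acot1. For Pdk4, Ucp3, Angptl4, Acot1, Plin2, Plin5 and Lpl the groups overlapped.

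**Figure D3:**
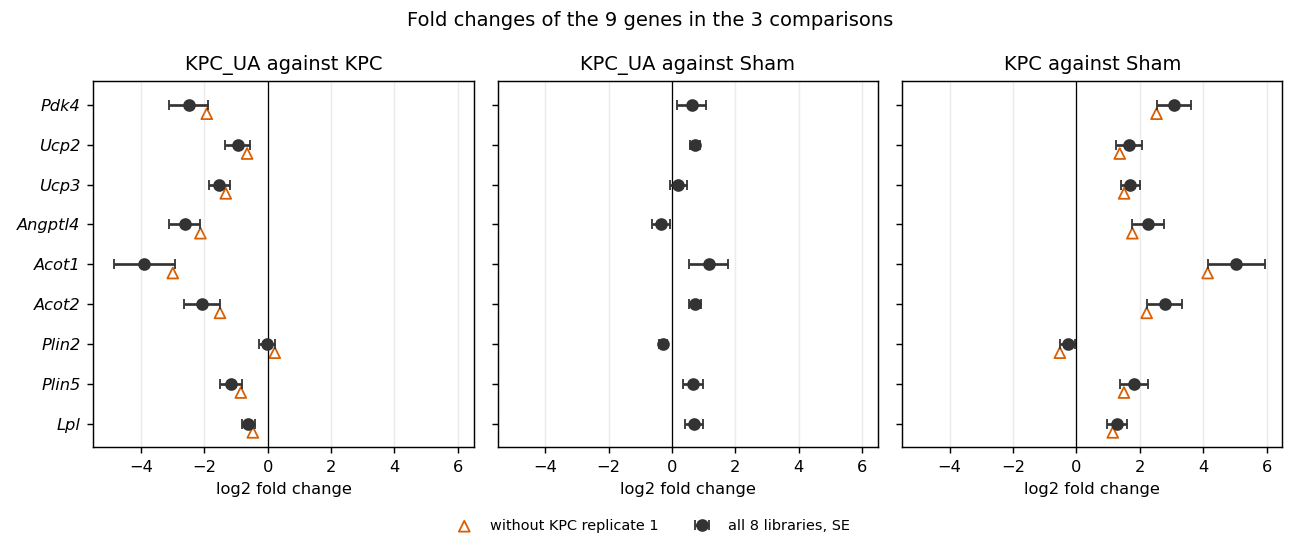
Log2 fold change of each gene with its SE (filled circles, limma, 8 libraries per comparison) in KPC_UA against KPC, KPC_UA against Sham and KPC against Sham, and the same without KPC replicate 1 (open triangles). Acot1 is farthest from 0 in all 3 panels, Plin2 is near 0, and in the outer panels the triangles of the other 8 genes lie closer to 0 than the circles.

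The gene whose log2 level was most like that of Pdk4 over the 12 libraries, among 10565 with a mean of at least 50, was Ucp3, with a Pearson r of 0.981. The median r of all genes with Pdk4 was 0.088. Acot1 and Angptl4 reached the mean of 50 only through KPC. Their means were 469 and 208 there, beside 17.2 and 26.8 in KPC_UA and 6.32 and 34.5 in Sham. Acot1 had an r of 0.952, Acot2 0.944, Angptl4 0.907, Plin5 0.884, Ucp2 0.857 and Lpl 0.745, whereas Plin2 had -0.091. Their ranks among the 10565 genes were 26, 53, 268, 476, 796, 2015 and 5906 in that order, so many other genes were as close to Pdk4. With the group means taken out, r was 0.941 for Ucp3, 0.824 for Acot1, 0.800 for Acot2 and 0.779 for Angptl4. It was 0.677 for Plin5, 0.617 for Ucp2, 0.343 for Lpl and 0.261 for Plin2. Outside the 9 genes, the closest were Tacc2 (0.980), a coiled-coil protein of the centrosome, Gcc2 (0.979), a golgin, Utp20 (0.974), a factor of small-subunit ribosome assembly, Hbp1 (0.972), an HMG-box repressor, and Rrn3 (0.967), an initiation factor of RNA polymerase I. Gcc2 (0.950) and Tacc2 (0.949) exceeded Ucp3 once the group means were taken out. All these values describe 12 libraries that share groups, and KPC replicate 1 is extreme in most of them.

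Other textbook PPAR targets of lipid use formed a list of 32 genes, chosen with earlier results of these data known. In KPC over Sham 2 of 31 tested rose and none fell by limma, where 0.354% of all genes rose. Plin4, a further perilipin, had 19868 ± 10294 normalised reads in KPC and 3697 ± 1296 in Sham (SD, n = 4 each), a limma log2 fold change of 2.32 ± 0.38 (SE) with an adjusted p of 0.0371. Slc27a1, a fatty acid transporter, had 5283 ± 679 in KPC and 2633 ± 604 in Sham (SD, n = 4 each), a limma log2 fold change of 1.02 ± 0.20 (SE) with an adjusted p of 0.0454. Both also passed without KPC replicate 1, at 2.02 and 1.06. The list had 29 positive and 2 negative values, and its median was 0.47. Of all genes tested, 50.5% had positive values, and their median was 0.0075. Aqp7 and G0s2 were the negative ones, with log2 fold changes of -1.17 and -1.64, and were picked out after their values were seen. By DESeq2 13 genes of the list were higher and 2 lower, where 11.7% of all genes passed and 6.75% were higher.

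In KPC_UA over KPC none of the 31 passed limma or edgeR. An unadjusted p under 0.05 by limma was found for 12 of them and for 12.7% of all genes. G0s2 passed DESeq2 with a positive value, and 0.738% of all genes passed it. Of the 31, 25 values were negative, and the median was -0.30. Among all genes 49.7% of values were positive, and the median was -0.0037. Plin4 had a limma log2 fold change of -1.16 ± 0.41 (SE) with an adjusted p of 0.382 and Slc27a1 of -0.52 ± 0.17 (SE) with a limma adjusted p of 0.382. In KPC_UA over Sham none of 30 passed limma, edgeR or DESeq2, and 9 had an unadjusted p under 0.05 (7.94% of all genes). There 26 values were positive (52.1% of all genes), and the median was 0.27 beside 0.0089 for all genes. Across KPC libraries the list did not share the order of the 9 genes throughout, since KPC replicate 1 was highest for 12 of 30 genes and KPC replicate 3 for 10.

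**Figure D4:**
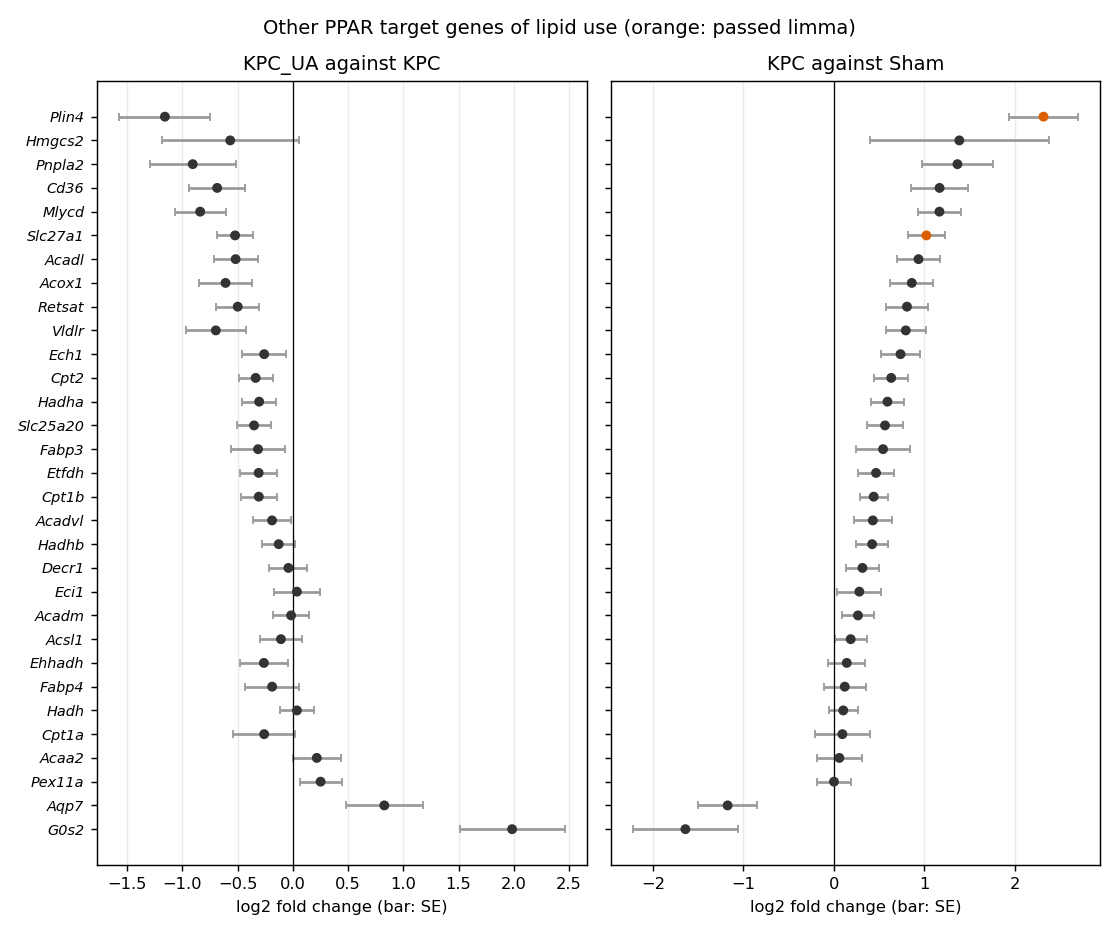
Log2 fold change with SE of the 31 other PPAR targets tested in KPC_UA against KPC (left) and KPC against Sham (right), ordered by the value in KPC against Sham. Orange marks Plin4 and Slc27a1, which passed limma in KPC against Sham, and only Aqp7 and G0s2 lie below 0 there.

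Of 12 genes for PPARs, RXRs and their cofactors, none passed limma or edgeR in any comparison. In KPC over Sham 4 of the 12 had an unadjusted p under 0.05 by limma, where 24.5% of all genes had one. DESeq2 passed 3 of the 12 and 11.7% of all genes. Those 3 were Rxrg, an RXR (limma log2 fold change -1.55 ± 0.45 SE, adjusted p = 0.104), Lpin1, a lipin that also coactivates PPAR alpha (1.07, SE 0.32, adjusted p = 0.108) and Ppargc1b, a coactivator (-1.57, SE 0.48, adjusted p = 0.114). In KPC_UA over KPC the log2 fold changes were 1.23 for Rxrg, -0.72 for Lpin1 and 1.15 for Ppargc1b, and without KPC replicate 1 they were 0.76, -0.38 and 0.65 in the same order. The receptors themselves, picked out after their values were seen, had log2 fold changes of 0.60 for Ppara (SE 0.42), 0.59 for Ppard (SE 0.23) and 0.03 for Pparg (SE 0.40) in KPC over Sham, and 0.33, 0.41 and -0.18 without KPC replicate 1.

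Of 6 factors other than PPARs that are known to act on Pdk4, 4 had positive and 2 negative values in KPC over Sham (all genes: 50.5% positive). KPC lay wholly above Sham for 4 of the 6 (all genes: 10%) and wholly below for 1. The factors named below are all among the positive ones, so they do not stand for the whole list. None passed limma, 5 had an unadjusted p under 0.05 (24.5% of all genes had one), and 1 passed edgeR, as did 179 genes in all. Klf15 had 3113 ± 2042 normalised reads in KPC and 783 ± 104 in Sham (SD, n = 4 each; limma log2 fold change 1.78 ± 0.38 SE, adjusted p = 0.0540). Foxo3 had a limma log2 fold change of 1.69 ± 0.42 (SE) with an adjusted p of 0.0780 and Foxo1 of 1.84 ± 0.49 (SE) with a limma adjusted p of 0.0901. In KPC_UA over KPC the values were -1.20 for Klf15, -1.08 for Foxo3 and -0.92 for Foxo1, and in KPC_UA over Sham they were 0.58, 0.63 and 0.93 in the same order. Without KPC replicate 1, Klf15 (log2 fold change 1.39, limma adjusted p = 0.0256) and Foxo3 (1.23, limma adjusted p = 0.0273) passed in KPC over Sham and Foxo1 (1.40, limma adjusted p = 0.0815) did not, and in KPC_UA over KPC the 3 had -0.81, -0.62 and -0.48. By DESeq2 4 of the 6 (Klf15, Foxo3, Foxo1 and Cebpb) were higher in KPC than in Sham, where 6.75% of all genes were.

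The enzymes that act with or against Pdk4 at pyruvate dehydrogenase were 13 genes, of which none passed limma or edgeR in any comparison. In KPC over Sham 2 of the 13 had an unadjusted p under 0.05 by limma and Pdp2 passed DESeq2. Of all genes, 24.5% had such a p and 11.7% passed DESeq2. Pdp2, a phosphatase that reactivates the complex and so opposes Pdk4, had 449 ± 342 normalised reads in KPC and 102 ± 47.4 in Sham (SD, n = 4 each; limma log2 fold change 1.99 ± 0.47 SE, adjusted p = 0.0702), with no overlap. Pdp1, the other phosphatase, had a limma log2 fold change of -1.10 ± 0.41 (SE) with an adjusted p of 0.156 and Dlat, a core subunit, of -0.75 ± 0.35 (SE) with a limma adjusted p of 0.214. In KPC_UA over KPC the values were -1.27 for Pdp2, 0.90 for Pdp1 and 0.69 for Dlat. Without KPC replicate 1, Pdp2 passed in KPC over Sham with 1.54 (limma adjusted p = 0.0433), Dlat had -0.47 there, and the value of Pdp2 in KPC_UA over KPC was -0.82, beside 0.53 for Pdp1 and 0.41 for Dlat. The kinase Pdk2, the commonest relative of Pdk4 in muscle, had a log2 fold change of 0.14 (SE 0.15; 0.21 without KPC replicate 1) in KPC over Sham and was picked out after its value was seen.

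Relatives of Acot1 and Acot2 and of the uncoupling proteins were few in the tables. Of 11 other Acot genes, 6 were tested and none passed limma or edgeR. In KPC over Sham 2 had an unadjusted p under 0.05 by limma and Acot7 passed DESeq2. Of all genes there, 24.5% had such a p, 11.7% passed DESeq2 and 50.5% had positive values. Of the 6, 5 had negative values in KPC over Sham, with log2 fold changes of -0.66 for Acot7 (SE 0.19), -1.09 for Acot11 (SE 0.47; -0.60 without KPC replicate 1) and -0.42 for Acot8 (SE 0.22). The same 3 had 0.41, 0.98 and 0.46 in KPC_UA over KPC (0.30, 0.50 and 0.33 without KPC replicate 1). Of 6 other carriers, 5 were tested and none passed limma or edgeR, while Slc25a27 had an unadjusted p under 0.05 and passed DESeq2, with log2 fold changes in KPC over Sham of 0.50 for Slc25a27 (SE 0.15), -0.39 for Slc25a4, the muscle adenine nucleotide translocase (SE 0.23; -0.17 without KPC replicate 1), and 0.14 for Slc25a5 (SE 0.19; 0.04 without KPC replicate 1).

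Among 14 tested genes of droplet coats, lipolysis and triglyceride synthesis, Plin4 rose and Plin1 and Cidec fell in KPC over Sham by limma. Of all genes, 1.18% passed limma there. By DESeq2 4 genes of the list were higher and 3 lower in KPC than in Sham, where 11.7% of all genes passed. In KPC_UA over KPC none of the 14 passed limma or edgeR. Plin1, G0s2 and Dgat2 passed DESeq2 in that comparison, 2 of them higher and 1 lower, where 0.738% of all genes passed. Plin1, the perilipin of fat cells, had 4.93 ± 0.819 normalised reads in KPC and 50.9 ± 22.6 in Sham (SD, n = 4 each; limma log2 fold change -3.02 ± 0.40 SE, adjusted p = 0.0255). Cidec, a fat cell droplet protein, had 10.4 ± 2.06 in KPC and 38.3 ± 13.1 in Sham (SD, n = 4 each; limma log2 fold change -1.74 ± 0.34 SE, adjusted p = 0.0454). Plin1 reached the mean of 10 only through Sham, so its pass is not read as support. Its 3.83 to 5.61 normalised reads in KPC libraries were near the floor of the log2(value + 1) scale. In KPC_UA libraries Plin1 had 9.92 to 33.7. Without KPC replicate 1 both Plin1 and Cidec still passed limma in KPC over Sham, at -3.03 and -1.78. Both are also in the adipocyte marker list, whose sum without Car3 was 83.0 to 123 in KPC and 226 to 586 in Sham. The fifth perilipin, Plin3, had a log2 fold change of 0.84 (SE 0.28) in KPC over Sham and did not pass limma. Of 7 tested genes that mature or anchor Lpl or take up lipid, Slc27a1 was the only one to pass limma in KPC over Sham. There 6 had positive values, with a median of 0.59, where 50.5% of all genes had positive values.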

How the data were processed

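RNA was sequenced from 12 tibialis anterior samples in 3 labelled groups of 4. Per the submitters' processing notes, the genome was GRCm38 and the tools included Subread 1.5.2 with featureCounts, and bcl2fastq 2.17. Not given in the sources used here are the aligner, the annotation and the strand setting. Per the file headers, the authors deposited 3 tables, one for each comparison, that give every gene a normalised signal in each of 8 libraries beside its log2 fold change, its p-value and its adjusted p-value. The deposited signal values were whole multiples of 1 step per library, and dividing by it recovered whole reads for 100% of values (tolerance 0.01 reads). DESeq2 on these reads matched the log2 fold changes that the authors deposited in 100% of genes (tolerance 0.01).

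Each comparison was fitted within its own table with limma 3.58.1 in R 4.3.3 (two-sided, variance trend, robust) on log2(value + 1), for genes with a mean of at least 10, with Benjamini-Hochberg adjustment over all genes tested. The scale understates the change of low genes. Levels across groups use median-of-ratios factors over the 12 libraries. Alternatives were pseudocounts of 0.5 and 5, no filter, a mean of at least 50, TMM, limma with neither trend nor robust estimation, count tests on recovered reads (edgeR 4.0.16, DESeq2 1.42.0), the authors' adjusted p, a block for the replicate number, and leaving out every library in turn. Leaving out KPC replicates 1 and 4 together was added after seeing the data. The fits were tested on simulated data.

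The 9 genes and all gene lists were chosen with earlier results of these data known. Named from each list are the genes that passed and otherwise up to 3 with the smallest p in KPC against Sham, and the 5 other genes most like Pdk4. Coordinates and exon lengths come from GENCODE M21 (GRCm38), counted from 1, and promoters from RefSeq (GRCm38.p6). The labels do not say what replicate numbers share, and correlations of same-numbered libraries were -0.265 to 0.135, so no pairing was used.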

Additional observations from a re-analysis of the deposited data

Results flagged for a closer look

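Among 27 sets of 4 libraries checked (9 genes in 3 groups), 1 held a library far from the rest. Lpl in KPC replicate 1 had 24172 normalised reads, while the other KPC libraries lay between 15348 and 16693, so that the gap was 0.848 of the whole range. Were the sets independent, chance would give about 1 such case in 20 sets. They share libraries, so the rate that applies here was not established.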

How the results depend on the processing

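No value reversed among those that passed a test. Over all alternatives the fold changes of the 9 genes kept their sign in 173 of 173 cases in KPC against Sham, in 170 of 173 in KPC_UA against KPC (the exceptions all Plin2) and in 160 of 161 in KPC_UA against Sham (Ucp3 without KPC_UA replicate 3). TMM moved the median of all genes by -0.012, 0.013 and -0.0014 in the 3 comparisons.

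In KPC against Sham, 160 genes (1.18%) passed limma, against 87 at a mean of at least 50 and 150 without trend and robust estimation. By DESeq2 and by the authors' adjusted p 1595 (11.7%) passed, and by limma 603 passed without KPC replicates 1 and 4. Of the 9 genes 8 passed by DESeq2 and the authors' adjusted p. At a mean of at least 50, and without trend and robust estimation, 3 passed (Ucp3, Pdk4 and Acot1) and Acot2 did not. Acot1 reached the mean of 50 only through KPC (454.6 beside 6.16 in Sham), so its pass at that limit is not read as support. Of the other PPAR targets 15 passed by DESeq2 and the authors' adjusted p. By limma 1 passed at a mean of at least 50, 1 without trend and robust estimation, and 4 without KPC replicates 1 and 4. In KPC_UA against KPC 100 genes (0.738%) passed by DESeq2, 99 (0.73%) by the authors' adjusted p and 2 without KPC replicates 1 and 4, with 4 of the 9 genes and 1 other PPAR target by DESeq2 and the authors' adjusted p. In KPC_UA against Sham 94 genes (0.692%) and 1 of the 9 passed by both. Since the 9 genes were chosen with results known, nothing is read from their counts under any setting.

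With a library left out, 0 to 1352 genes (at most 10% of those tested), 0 to 8 of the 9 and 0 to 10 other targets passed in KPC against Sham, 395 genes (2.93%) without KPC replicate 1. In KPC_UA against KPC 0 to 3 genes passed, and in KPC_UA against Sham 0 to 4. The median of the 9 was 1.51 to 2.12, -1.79 to -1.32 and 0.36 to 0.82 in the 3 comparisons. The cause of these shifts was not tested.

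With the replicate number as a block, 66 of 13542 genes, 4 of the 9 and 1 other target passed in KPC against Sham, and none in the other comparisons. Those 4 were Ucp3, Plin5, Pdk4 and Acot2, so that Acot1 no longer passed and Plin5 did. The labels do not say whether same-numbered libraries belong together, and the low correlations over all genes cannot settle it. With the block the SE in KPC against Sham was lower for every member, for Plin5 0.22 instead of 0.44. In KPC_UA against KPC the block raised it for Acot1, Plin5 and Lpl. Acot1 in Sham rested on 2 to 9 reads per library, which limits its fold change.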
